A study of Mus musculus with 8 samples.

Results

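The chitinases and chitinase-like proteins of mouse lung are described here over the 4 groups of an RNA-Seq experiment on a house dust mite (HDM) model of asthma. The members were the rows of the count table whose Entrez identifiers map to Chil1, Chil3, Chil4, Chia1 and Chit1, that is 5 of 23469 genes, and no measured value was used to choose them. All mice were on the C57BL/6 background. WT PBS mice were wild type and received 50 µl of PBS into the trachea, and WT HDM mice were wild type and received 100 µg of HDM extract in the same volume. TG PBS and TG HDM mice were DDAH1-transgenic and had these same PBS and HDM treatments. Instillations were given 3 times per week for 3 weeks in all 4 groups. In the study's methods, airway responses to methacholine were measured 24 hours after the last one. Blood, bronchoalveolar lavage samples and lungs were taken after that measurement. RNA of 4 mice was pooled within a group and sequenced as 2 libraries. Every SD and p-value below therefore measures how far 2 libraries made from the same pooled RNA differ, which is a technical spread with no variation between mice. The promoter that drives the transgene, and the age and sex of the mice, are not given in the sources used here. DDAH1 is an enzyme that degrades asymmetric dimethylarginine, an inhibitor of nitric oxide synthase.

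The members belong to the GH18 family of glycoside hydrolases, which fold into a barrel that binds chitin, the polymer of N-acetylglucosamine in mite cuticle, insects and fungi. Chia1 (acidic mammalian chitinase) and Chit1 (chitotriosidase) cut chitin. Chil1, Chil3 (also known as Ym1) and Chil4 (Ym2) are chitinase-like proteins, which bind sugar polymers but lack the catalytic residue. In mouse lung these proteins are secreted by macrophages and airway epithelium, and Chil3, Chil4 and Chia1 are well known targets of IL-4 and IL-13 acting through STAT6.

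On GRCm38.p6, 3 of the members lie close together on chromosome 3: Chia1 at 106113382 to 106132118 on the plus strand, Chil3 at 106147554 to 106167564 on the minus strand and Chil4 at 106201491 to 106219479 on the minus strand. Chil1 (134182156 to 134190031) and Chit1 (134111242 to 134151541) are neighbours on the plus strand of chromosome 1. The count table was made by summing reads over the coding region of each gene, so it matters how far the coding sequences can be told apart. Those of Chil3 and Chil4 (GENCODE M21) were 95.4% identical, with 55 differing bases among 1194 aligned. Chia1 was 77.0% identical to Chil3 and 76.6% to Chil4, and Chil1 was between 64.4% and 69.3% identical to the other members. The length of the reads is 50 bases in the study's methods. Of all 50-base stretches of the Chil3 transcript, 29.4% occurred letter for letter in a transcript of another gene, and 67.1% did so when up to 2 mismatches were allowed. For Chil4 the shares were 20.4% and 64.0%. The exact matches were to the other gene of the pair and to the pseudogene Gm6522, which is not among the genes analysed here. With up to 2 mismatches, stretches of Chia1 and Chil5 were matched as well. No 50-base stretch of Chil1, Chia1 or Chit1 was found in another gene, and 1.16% of those of Chia1 were with up to 2 mismatches. The levels of Chil3 and Chil4 are thus uncertain relative to each other, since the counting could split shared reads, and that of Chia1 could be touched only through the small share given for it.

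Within the aligned coding sequences, 20.7% of 1145 windows of 50 bases held no difference between Chil3 and Chil4 and 29.1% held more than 2. A pair of windows is printed to show both extremes, with the bases that differ between the genes in capitals. The shared window covers coding bases 1030 to 1079 in both genes and spans the junction of exons 9 and 10 (chr3:106148677-106148807 in Chil3 and chr3:106202617-106202747 in Chil4, minus strand, GRCm38). The most different window covers coding bases 510 to 559 and lies in exon 6 (chr3:106155714-106155763 in Chil3 and chr3:106206041-106206090 in Chil4, minus strand), and it holds 10 differences.
Chil3 shared window: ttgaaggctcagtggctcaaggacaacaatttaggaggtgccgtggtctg
Chil4 shared window: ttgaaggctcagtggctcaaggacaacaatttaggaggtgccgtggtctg
Chil3 most different window: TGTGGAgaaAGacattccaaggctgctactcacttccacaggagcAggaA
Chil4 most different window: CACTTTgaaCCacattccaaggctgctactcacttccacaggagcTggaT

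**Figure D1:**
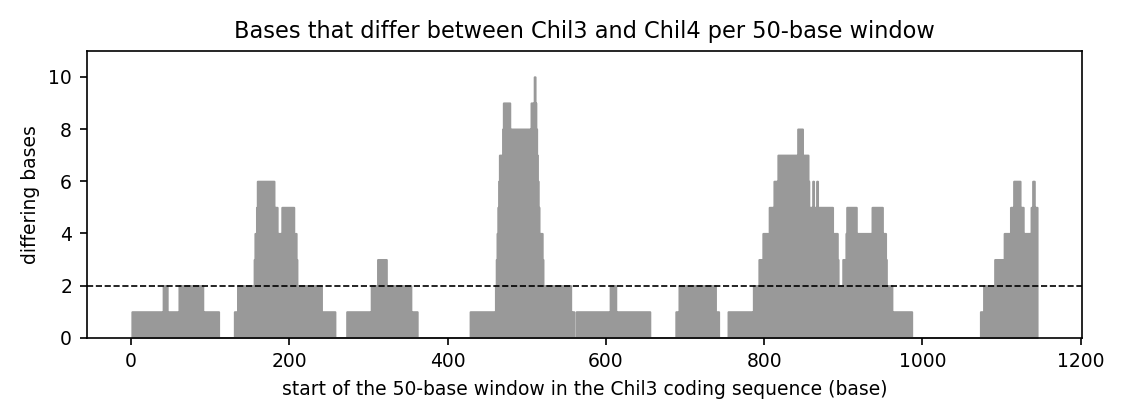
Number of bases that differ between Chil3 and Chil4 (y axis) in each 50-base window of the Chil3 coding sequence (x axis, start of the window in bases), with a dashed line at 2 differences. Differences cluster in a few stretches with up to 10 per window, and 20.7% of the windows hold none.

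The RT-qPCR primers of the study, which are separate from the reads, are printed because they show where an assay can tell the pair apart. Capitals mark bases that differ from the nearest site in the other gene. The forward primer named CHI3L3 matched both transcripts letter for letter, and its reverse primer differed from Chil4 at 4 bases. The primers named CHI3L4 differed from Chil3 at 8 and at 4 bases.
CHI3L3 forward: caggtctggcaattcttctgaa
CHI3L3 reverse: gtcttgctcaTGtGTgtaagtga
CHI3L4 forward: tcCACTTTgaaCCacattccaa
CHI3L4 reverse: ccagCactaaCAgtagggTca

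The start regions of the pair are also alike, and they are printed to show this likeness. Whether it bears on the levels of the pair, which could share reads, was not tested. The stretches come from the promoter table of RefSeq (GRCm38.p6, minus strand), at chr3:106167554-106167747 for Chil3 and chr3:106219497-106219690 for Chil4. They were 91.2% identical over 193 aligned bases. Capitals mark TATAAA and a run of TTC, any 3 bases and GAA, the latter being a letter pattern of the kind that STAT factors are known to bind.
Chil3 start region: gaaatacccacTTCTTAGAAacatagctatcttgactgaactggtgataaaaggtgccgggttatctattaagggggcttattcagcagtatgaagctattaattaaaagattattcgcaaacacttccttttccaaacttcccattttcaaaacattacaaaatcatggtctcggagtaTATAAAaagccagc
Chil4 start region: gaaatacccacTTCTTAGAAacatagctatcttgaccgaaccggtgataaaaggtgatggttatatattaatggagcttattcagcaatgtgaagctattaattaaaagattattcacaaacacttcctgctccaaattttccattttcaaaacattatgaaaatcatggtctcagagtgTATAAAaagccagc
In both genes the same 9 letters, TTCTTAGAA, began 169 bases before TATAAA. The annotated starts are placed differently, as TATAAA began 3 bases before the start in Chil3 and 31 bases before it in Chil4. The pattern of TTC and GAA with 3 bases between, the same pattern with 4 bases between, and TATAAA were searched on both strands of the 300 bases around each RefSeq start (250 before and 50 after), and they do not overlap in the members. Of 27025 genes with such a region, 8.47% held the form with 3 bases between, 6.99% held the form with 4 bases between and 14.2% held TATAAA. The form with 3 bases between was found in Chil3 and Chil4 and not in the windows of Chia1, Chil1 and Chit1. TATAAA was found in Chil3, Chil4 and Chia1, and the form with 4 bases between in none of the members. These patterns were chosen after the sequences had been seen, and a match is a description of letters only.

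Total counts ranged from 5694928 in TG HDM replicate 1 to 11929374 in WT PBS replicate 2. The 45S ribosomal RNA gene took 8.58% and 9.37% of them in TG HDM and 16.7% and 21.5% in WT HDM. In the PBS libraries it took between 14.8% and 21.8%. The groups compared for genotype under HDM thus differed in this share. The 10 marker genes of alveolar type 2 cells summed to between 16892 and 27046 CPM (counts scaled to the effective library size) in the 8 libraries. Ddah1, the gene named in the genotype, had 47.6 and 34.3 CPM in WT PBS, 77.2 and 53.7 in TG PBS, 43.1 and 44.8 in WT HDM and 34.7 and 33.4 in TG HDM. Neither difference between genotypes passed the test (log2 fold change 0.66, adjusted p = 0.358 under PBS, and -0.32, adjusted p = 0.637 under HDM), and under HDM the libraries labelled transgenic were the lower ones. The species of the transgene is not given in the sources used here. Reads of the transgene may therefore not be counted under the mouse gene Ddah1, and these counts cannot show whether it was expressed. The PBS and HDM libraries stood apart in sex-linked genes. Xist, which is transcribed from the inactive X chromosome, had between 11.3 and 20.8 CPM in the 4 PBS libraries and between 2051 and 3028 in the 4 HDM libraries. The Y-linked gene Ddx3y had between 58.7 and 68.9 CPM in the PBS libraries and 2 or 3 counts in each HDM library. Treatment and sex therefore cannot be told apart in any comparison of HDM with PBS or in the interaction. Each genotype comparison lies within libraries that are alike in these sex-linked genes.

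Levels are given as CPM on a scale common to the 8 libraries (TMM normalization), and between genes only as CPM per kilobase of transcript. Chil3 had the highest level per kilobase of the family in every group. In WT PBS lungs Chil3 stood at 245, Chil1 at 178, Chil4 at 35.6 and Chia1 at 24.3 CPM per kilobase (means, n = 2). In WT HDM lungs Chil4, at 986, stood above Chil1, at 699, with Chil3 at 5907 and Chia1 at 292. In TG HDM lungs the order was again that of the PBS groups, with Chil3 at 2478, Chil1 at 492, Chil4 at 328 and Chia1 at 92.4. The orders are the same per kilobase of coding sequence. Chit1 had 0 counts in all 8 libraries, which allows at most 0.251 to 0.527 CPM (3 counts of each unscaled total, counting error only), so nothing further can be said of its level. Together the other 4 members took 0.0790% to 0.0831% of all counts in the PBS libraries, 1.24% and 1.17% in WT HDM, and 0.539% and 0.677% in TG HDM.

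**Figure D2:**
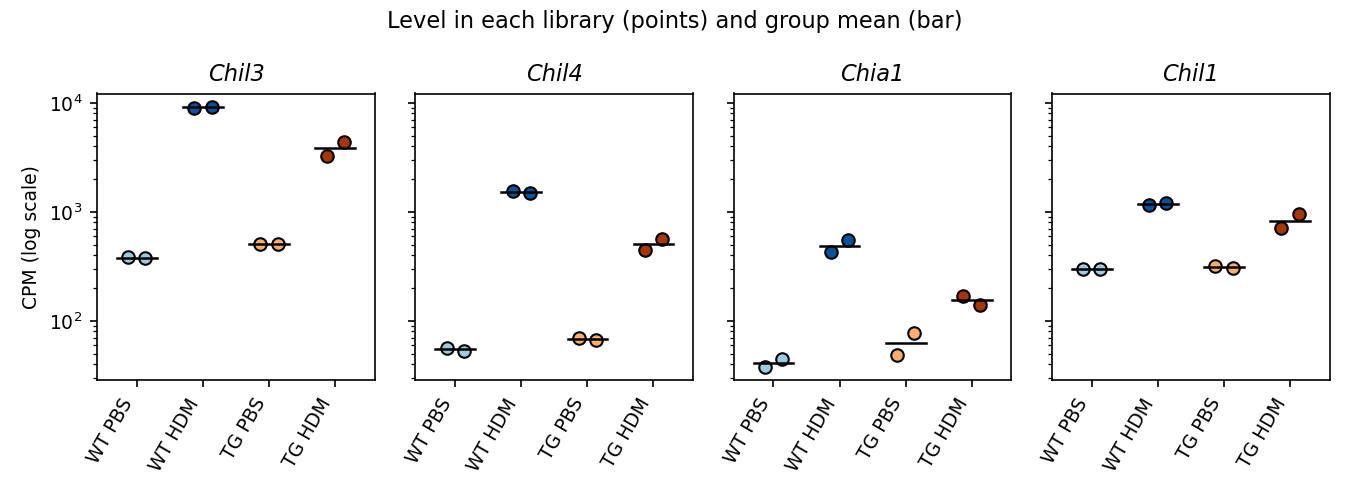
CPM on a log scale (y axis) of Chil3, Chil4, Chia1 and Chil1 in each library (points) of the 4 groups (x axis), with the mean of the 2 libraries as a bar. All HDM libraries lie above all PBS libraries for each gene, and the TG HDM libraries lie below the WT HDM libraries.

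The first question was how HDM treatment of wild type mice changed the family. All 4 detected members rose, Chil3 and Chil4 most, with 24.0-fold and 27.6-fold higher levels, then Chia1 with 12.0-fold and Chil1 with 3.92-fold. Chil3, a secreted lectin of macrophages that can form crystals in inflamed airways, had 382 and 374 CPM in WT PBS and 8932 and 9248 CPM in WT HDM. Its libraries were nearly alike within each group and far apart between groups (log2 fold change 4.59, SE 0.08, adjusted p = 8.70e-14). Chil4, its close relative, had 56.5 and 53.0 CPM in WT PBS and 1545 and 1489 CPM in WT HDM. Its groups were as clearly separated (4.79, SE 0.13, adjusted p = 1.09e-11). Chia1, the acidic chitinase, had 37.4 and 44.2 CPM in WT PBS and 425 and 555 CPM in WT HDM. The WT HDM libraries of Chia1 lay further from each other than those of Chil3, but both were well above the PBS libraries (3.58, SE 0.17, adjusted p = 1.50e-08). Chil1, a lectin made by macrophages and epithelium, had 300 and 299 CPM in WT PBS and 1156 and 1202 CPM in WT HDM (1.97, SE 0.11, adjusted p = 5.78e-08). Adjusted p-values here and below come from the quasi-likelihood test of edgeR and were adjusted over all genes tested by the method of Benjamini and Hochberg. The count of 4 of 4 tested members stands beside 4.44% of 15123 genes tested that were called higher and 2.3% called lower, and groups did not overlap for 49.8% of all genes tested. By p-value Chil3 and Chil4 had ranks 2 and 3 in the whole table.

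The same treatment of DDAH1-transgenic mice was compared next. All 4 detected members rose in TG lungs too, by 7.62-fold for Chil3, 7.52-fold for Chil4, 2.71-fold for Chil1 and 2.51-fold for Chia1. Chil3 had 510 and 507 CPM in TG PBS and 3253 and 4374 CPM in TG HDM (log2 fold change 2.93, SE 0.17, adjusted p = 9.15e-07). Chil4 had 69.8 and 66.7 CPM in TG PBS and 443 and 567 CPM in TG HDM (2.91, SE 0.20, adjusted p = 4.64e-06). For both genes replicate 1 of TG HDM, the shallowest library, was the lower one. Chil1 had 315 and 307 CPM in TG PBS and 714 and 947 CPM in TG HDM (1.44, SE 0.18, adjusted p = 0.000383). Chia1 had 49.0 and 77.2 CPM in TG PBS and 170 and 141 CPM in TG HDM (1.33, SE 0.27, adjusted p = 0.00659). Here the PBS libraries of Chia1 were the ones that differed, and its call was lost without replicate 1 of TG PBS (1.02, adjusted p = 0.145) or replicate 2 (1.69, adjusted p = 0.0558). Among all genes, 8.43% of 15086 were called higher in this comparison and 56.8% had groups that did not overlap.

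The third question was whether the genotypes differed without allergen. Under PBS none of the 4 detected members passed the test, beside 0.657% of 14926 genes called in either direction. At an unadjusted p under 0.05, 2 members differed, Chil3 and Chia1, both higher in TG PBS. The log2 fold change of Chil3 was 0.42 (SE 0.12, 95% interval 0.17 to 0.66, adjusted p = 0.134), and DESeq2 called it (0.43, adjusted p = 0.0273). Without a filter on low counts it was also called (adjusted p = 0.0492). The change of Chia1 was 0.61 (SE 0.26, interval 0.08 to 1.15, adjusted p = 0.407), and it was called when replicate 1 of TG PBS was left out (0.92, adjusted p = 0.0396). Chil4 had a value of 0.30 (SE 0.21, interval -0.14 to 0.75, adjusted p = 0.696). Chil1 had 0.04 (SE 0.13, interval -0.22 to 0.30, adjusted p = 0.950), so that a difference in Chil1 beyond 1.23-fold upwards lay outside its interval. The libraries of TG PBS lay above those of WT PBS for all 4 genes, as groups did not overlap for 40.4% of all genes tested.

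The fourth question was whether the genotypes differed after HDM. Chil3, Chil4 and Chia1 were lower in TG HDM lungs than in WT HDM lungs, by 2.32-fold, 2.92-fold and 3.06-fold, and Chil1 did not pass the test. The study itself had picked Chia, Chi3l3 and Chi3l4, its names for Chia1, Chil3 and Chil4, from these same libraries. Their direction in these counts is therefore not independent evidence. The study also reported, from RT-qPCR, lower levels of all of them in TG HDM than in WT HDM lungs. Those measurements are separate from the reads and were not analysed here. Whether the same mice served for both is not given in the sources used here. Chil3 fell from 9090 ± 224 to 3814 ± 793 CPM (mean ± SD, n = 2), with a log2 fold change of -1.21 (SE 0.14, adjusted p = 0.00157). Chil4 fell from 1517 ± 39.6 to 505 ± 87.2 CPM, with -1.55 (SE 0.17, adjusted p = 0.00121). Chia1 fell from 490 ± 92.0 to 155 ± 20.1 CPM, with -1.62 (SE 0.21, adjusted p = 0.00190). In each of the 3 genes both TG HDM libraries lay below both WT HDM libraries. Chil1 had 1179 ± 32.4 CPM in WT HDM and 830 ± 165 CPM in TG HDM (-0.47, SE 0.17, interval -0.83 to -0.10, adjusted p = 0.190). The 3 of 4 tested members called lower stand beside 0.599% of 15191 genes tested that were called lower and 1.84% called higher, and groups did not overlap for 48.2% of genes. All 3 calls were lost when either WT HDM library was left out. Without replicate 1 of WT HDM the log2 fold changes were -1.26 for Chil3, -1.54 for Chil4 and -1.81 for Chia1 (adjusted p = 0.165, 0.165 and 0.154), and without replicate 2 they were -1.18, -1.57 and -1.40 (adjusted p = 0.0894, 0.0689 and 0.129). Chil1 was called when replicate 2 of TG HDM was left out (-0.67, adjusted p = 0.000699). With the counts of Chil3 and Chil4 summed to one gene, the change was -1.26 (SE 0.14, adjusted p = 0.00144).

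**Figure D3:**
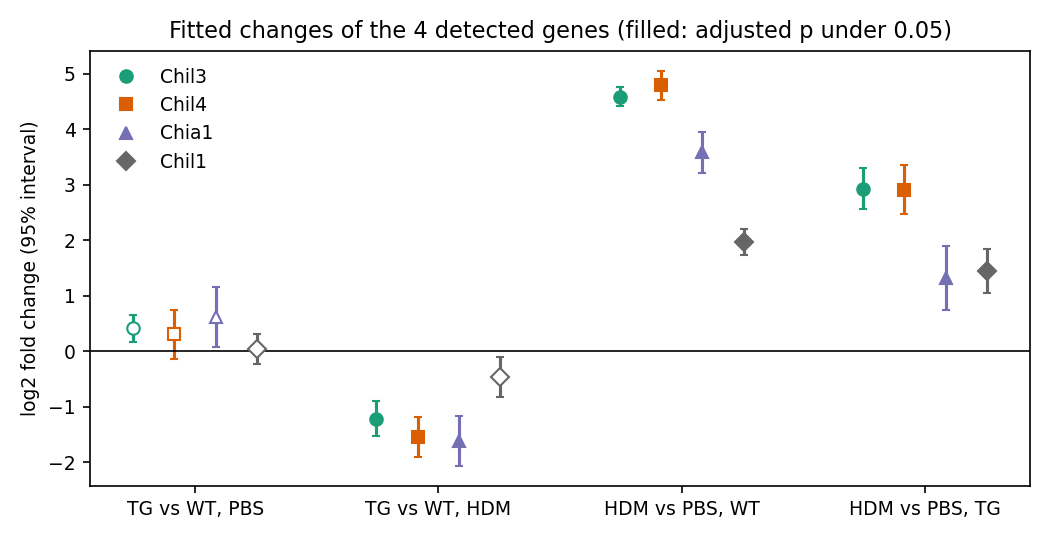
Log2 fold change (y axis) of Chil3, Chil4, Chia1 and Chil1 in the 4 comparisons (x axis), with the 95% interval of the fit as error bars and filled markers where the adjusted p passed the threshold of 0.05. All 4 genes are filled in both comparisons of HDM with PBS, 3 are filled and negative for genotype under HDM, and none is filled for genotype under PBS.

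The interaction asks whether the difference between HDM and PBS libraries, called the response to HDM here, differed between the genotypes. It was fitted on all 8 libraries. As treatment goes with sex here, a differing response to HDM cannot be told apart from a differing effect of sex. The response was smaller in TG than in WT lungs for Chia1 (difference of log2 responses -2.28, SE 0.31, adjusted p = 0.000362), Chil4 (-1.90, SE 0.21, adjusted p = 3.40e-05) and Chil3 (-1.68, SE 0.17, adjusted p = 1.03e-05). Chil1 had a difference of -0.55 (SE 0.21, interval -0.99 to -0.12, adjusted p = 0.205). These 3 calls stand beside 0.706% of 15868 genes called lower. They are made of the same libraries as the comparisons above. Chil1 was called here as well without replicate 2 of TG HDM (-0.77, adjusted p = 0.0162).

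Because the members rose by different factors, the make-up of the family changed with HDM. Chil1 made up 38.7% and 38.9% of the counts of the 4 genes in WT PBS and 9.59% and 9.62% in WT HDM. In TG lungs its share was 33.4% and 32.0% under PBS and 15.6% and 15.7% under HDM. The share of Chil3 went from 49.2% and 48.5% to 74.1% and 74.0% in WT, and from 54.0% and 52.9% to 71.0% and 72.6% in TG. Chil4 as a share of Chil3 and Chil4 together was 12.9% (95% Wilson interval 11.9% to 13.9%) and 12.4% in WT PBS, 14.7% (14.5% to 15.0%) and 13.9% (13.7% to 14.1%) in WT HDM, 12.0% and 11.6% in TG PBS, and 12.0% (11.6% to 12.4%) and 11.5% in TG HDM. Both WT HDM libraries lay above all others, but the 2 WT HDM libraries also differed from each other beyond counting error. With 2 libraries against 2, an exact permutation test cannot give a p below 0.333, so no test was made of these shares.

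**Figure D4:**
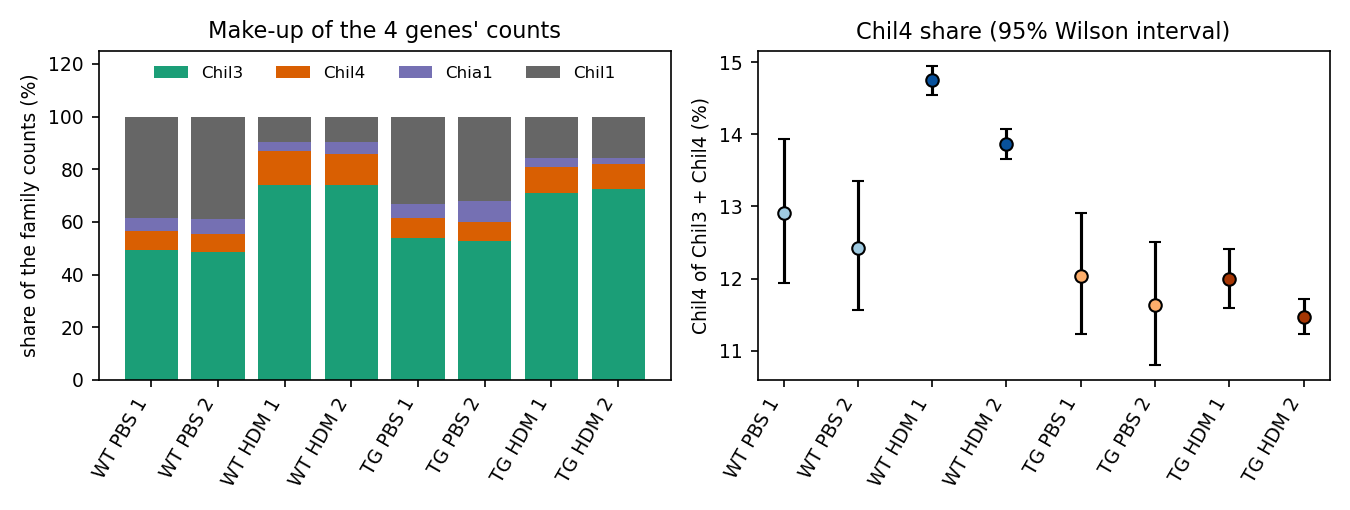
Left, share of the counts of the 4 detected members (y axis, percent) taken by each in every library (x axis). Right, Chil4 as a percent of Chil3 and Chil4 together in every library, with 95% Wilson intervals that cover counting error only and an axis that does not start at 0. Chil1 is 32.0% or more of the family in the PBS libraries and 15.7% or less in the HDM libraries, and the Chil4 share lies between 11.5% and 14.7% throughout.

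The table held 4 other GH18 genes. Chid1 and Ctbs (di-N-acetylchitobiase) are lysosomal or broadly expressed members of the family, Ovgp1 is an oviduct glycoprotein and Chil6 is a further chitinase-like gene near the cluster on chromosome 3. Chid1 had between 8.41 and 20.6 CPM and Ctbs between 12.9 and 40.5 CPM over the 8 libraries, and their groups overlapped in most comparisons. In the 5 comparisons 0 of Chid1, Ctbs and Ovgp1 passed the test by edgeR or DESeq2, with 0 at an unadjusted p under 0.05. Chil6 had at most 1 count in each PBS library and 4, 9, 14 and 2 counts in the HDM libraries, which was too few to be tested, although its HDM libraries lay above its PBS libraries in both genotypes. Chil6, Chid1, Ctbs and Ovgp1 together summed to between 25.2 and 59.5 CPM in every library. In a list of 10 enzymes that act on N-acetylglucosamine or its polymers, which holds Ctbs too, Hexa, a subunit of lysosomal hexosaminidase, was the 1 gene called in WT under HDM (log2 fold change 1.29, adjusted p = 0.0119). Between the genotypes under HDM edgeR called 0 of the 10, with 3 at an unadjusted p under 0.05, and DESeq2 called 1.

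The genes whose pattern over the 4 group means was most like that of each member were looked up among 15683 genes, as the root mean square difference of centred log2 levels. For Chil3 the nearest was Chil4, and for Chil4 it was Chil3 (0.13), which share stretches of sequence and could share reads as described above. The next for both were Tnip3, an inhibitor of NF-kappaB signalling (0.19 and 0.24), and Muc5ac, the main gel-forming mucin of airway goblet cells (0.28 and 0.29). Muc5ac had means of 7.39, 285, 13.1 and 119 CPM in WT PBS, WT HDM, TG PBS and TG HDM. For Chia1 the nearest were Slc5a1, a sodium-glucose cotransporter (0.12), Cd200r2 (0.15) and Col24a1 (0.17), of which the last 2 had a mean of at most 4.85 CPM in any group. For Chil1 they were Chaf1a (0.06), Tmem213 (0.06) and Atp6v0d2 (0.07), a proton pump subunit of macrophages and osteoclasts. Atp6v0d2 had means of 63.0, 230, 68.7 and 172 CPM, while Chaf1a and Tmem213 were low. Chil1 itself was far from the pair, at 1.07 from Chil3. These are likenesses over 4 means and carry no test.

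The pathway that is known to induce the family was described by a list of 19 genes for IL-4 and IL-13 signalling. Under HDM in WT, 3 of 14 tested rose and 1 fell: Irf4, a transcription factor of alternatively activated macrophages and lymphocytes (2.28, adjusted p = 3.79e-05), Il33, an epithelial alarmin (2.10, adjusted p = 5.58e-07), Il2rg, a shared cytokine receptor chain (1.28, adjusted p = 0.00127), and Klf4 in the other direction (-0.72, adjusted p = 0.0187). The median of the list was 0.09, beside 0.02 over all genes tested. Between the genotypes under HDM 1 of 16 was called, Il33, which fell by 1.09 on the log2 scale (adjusted p = 0.00759). Its levels were 595 and 526 CPM in WT HDM and 261 and 251 CPM in TG HDM. The cytokines themselves were near the limit of detection. Il13 had 28 and 9 counts in WT HDM and 0 and 2 in TG HDM, too few to be tested, and Il4 had 8 and 48 in WT HDM and 6 and 6 in TG HDM (-1.99, SE 1.35, adjusted p = 0.505). Of 5 tested receptors or partners of Chil1, Lgals3 (1.87, adjusted p = 1.44e-05) and Cd44 (0.88, adjusted p = 0.000650) rose with HDM in WT. Between the genotypes under HDM 0 of 5 were called by edgeR or DESeq2, with 2 at an unadjusted p under 0.05.

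Markers of the cells that make these proteins moved with them in part. In bulk lung RNA, fewer cells of a type and less RNA per cell cannot be told apart. Of 8 goblet cell genes, 5 of 6 tested rose with HDM in WT, led by Clca1, a secreted goblet cell protein (8.29, adjusted p = 1.52e-10), Muc5ac (5.26, adjusted p = 2.30e-09) and Slc26a4 (4.87, adjusted p = 1.51e-08). Their summed level was between 23.6 and 42.0 CPM in the PBS libraries, 2325 and 2342 in WT HDM, and 803 and 970 in TG HDM. Most of that sum under HDM was Clca1, with means of 1743 CPM in WT HDM and 649 in TG HDM. Between the genotypes under HDM, 4 of 7 tested goblet genes were called lower, Slc26a4, an anion exchanger (-1.82, adjusted p = 0.00157), Fcgbp, a mucus protein (-1.58, adjusted p = 0.0382), Clca1 (-1.38, adjusted p = 0.00144), and Muc5ac (-1.22, adjusted p = 0.00771). None was called higher, but not all of the list lay lower in TG HDM. Tff2 had 5.91 and 9.96 CPM in WT HDM and 14.9 and 22.8 in TG HDM. Spdef, at a low level, had 1.34 and 0.905 CPM in WT HDM and 4.47 and 1.94 in TG HDM. The median of the list was -1.22, beside -1.38 for the chitinase family and 0.01 over all genes tested. As with the members, these 4 calls were lost when either WT HDM library was left out, as were the genotype calls under HDM of all other lists but for 1 club cell gene. The part of goblet cell number in the levels of the members was not tested.

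Of 12 genes of alternatively activated macrophages, 8 rose with HDM in WT, led by Retnla, a secreted resistin-like protein (7.62, adjusted p = 2.14e-10), the chemokine Ccl24 (1 and 0 counts in WT PBS, 58 and 109 in WT HDM, adjusted p = 0.00188) and Arg1, arginase (4.62, adjusted p = 1.80e-07). Between the genotypes under HDM only Arg1 (-2.44, adjusted p = 0.00151) and the chemokine Ccl22 (-1.82, adjusted p = 0.0182) were called, both lower in TG. Retnla, at 1579 and 2212 CPM in WT HDM and 1190 and 1556 in TG HDM, had a value of -0.43 (adjusted p = 0.285). The median of the list was -0.28. The summed level of these 12 genes was 2262 and 2854 CPM in WT HDM and 1812 and 2041 in TG HDM. Of 10 genes of lipid-laden macrophages, 8 rose with HDM in WT, led by Mmp12 (5.46, adjusted p = 6.79e-11), Ctsk (3.17, adjusted p = 1.34e-05) and Spp1 (2.77, adjusted p = 4.56e-08). Between the genotypes under HDM 1 was called, Apoe (1.01, adjusted p = 0.0382), higher in TG. Genes not called lay in both directions. Mmp12 had 730 and 767 CPM in WT HDM and 497 and 372 in TG HDM, while Gpnmb had 272 and 229 against 464 and 380. From RT-qPCR, the study reported lower MMP-12 in TG HDM than in WT HDM lungs. Of 10 alveolar macrophage genes, 3 rose with HDM in WT, Itgax (2.88, adjusted p = 5.52e-07), Ear2 (1.84, adjusted p = 1.42e-05) and Mrc1 (1.72, adjusted p = 3.26e-05). None was called lower, but not all of the list lay higher in WT HDM. Marco had 8.22 and 7.60 CPM in WT PBS and 2.15 and 1.01 in WT HDM. Siglecf and Fabp4 also lay lower in both WT HDM libraries, while Car4 lay higher in both. The median of the list was 0.28, beside 0.02 over all genes tested. Between the genotypes under HDM the 1 called was Fabp4 (2.06, adjusted p = 0.0420), higher in TG and also an adipocyte gene.

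**Figure D5:**
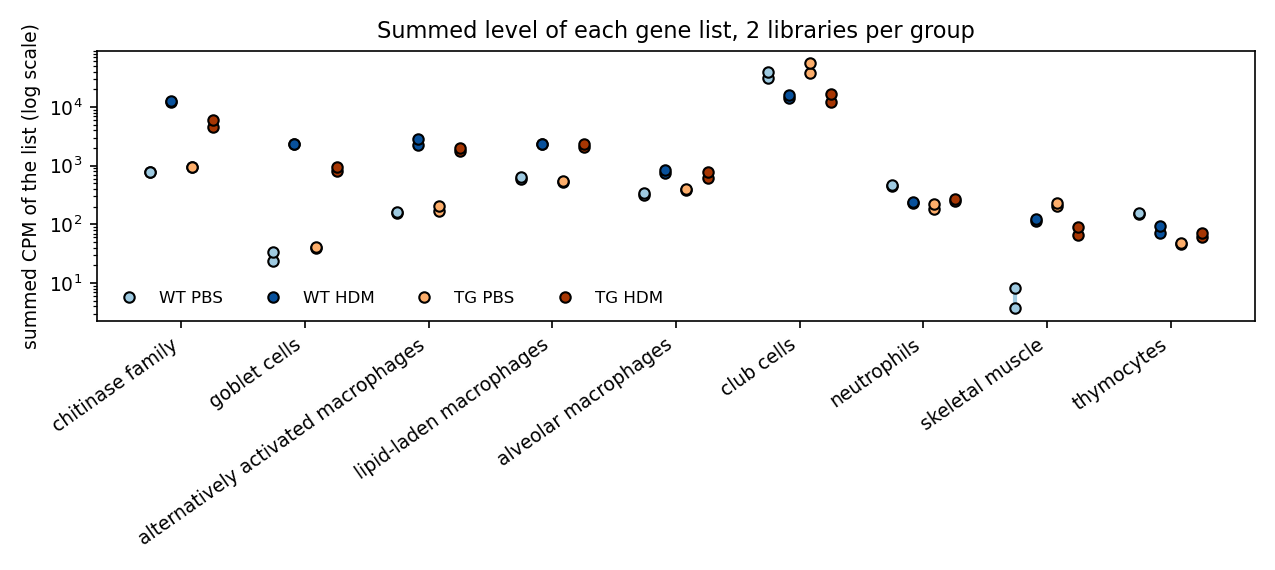
Summed CPM on a log scale (y axis) of the chitinase family and of 8 marker gene lists (x axis) in the 2 libraries of each group (points, joined by a line). The chitinase family and the goblet cell genes lie lower in TG HDM than in WT HDM libraries. The genes of alternatively activated macrophages, lipid-laden macrophages and skeletal muscle also lie lower there, by less, and those of neutrophils lie slightly higher. The lipid-laden macrophage genes lie close together in these groups.

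Of 10 club cell genes, 3 rose and 5 fell with HDM in WT, led by Bpifa1 (-2.35, adjusted p = 5.56e-05), Reg3g (2.32, adjusted p = 2.84e-06) and Cyp2f2 (-2.01, adjusted p = 1.88e-08). Under HDM the genotypes differed in Scgb3a2 (2.92, adjusted p = 0.000132), Scgb3a1 (0.98, adjusted p = 0.0429) and Muc5b (-0.82, adjusted p = 0.0159), so the direction was mixed while Chia1, known from club cells, was lower. Of 10 alveolar type 2 genes, 3 rose and 1 fell with HDM in WT, led by the collectin Sftpd (1.06, adjusted p = 0.000269), Cxcl15 (0.66, adjusted p = 0.000329) and the surfactant gene Sftpc (-0.62, adjusted p = 0.000480), and Sftpd (0.82, adjusted p = 0.0281) was the 1 called between the genotypes under HDM. Of 7 tested eosinophil genes, Ccr3 was the 1 called with HDM in WT (4.56, adjusted p = 0.0494), with 6 and 0 counts in WT PBS and 138 and 16 in WT HDM. Between the genotypes under HDM 0 were called by edgeR or DESeq2, with 0 at an unadjusted p under 0.05. Some genes of the list had few or uneven counts, such as Prg2 with 9 and 70 in WT HDM and Alox15 with 0 and 189 in TG HDM. The study reported fewer eosinophils in lavage samples of TG HDM than of WT HDM mice, a cell count that was not analysed here. Of the neutrophil genes, 4 of 9 fell with HDM in WT, led by S100a9 (-2.38, adjusted p = 0.000432), S100a8 (-2.14, adjusted p = 0.000240) and Csf3r (-0.82, adjusted p = 0.0110), and 0 of 7 tested were called between the genotypes under HDM by edgeR or DESeq2, with 2 at an unadjusted p under 0.05.

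Genes of tissues that are not lung parenchyma also differed between the libraries. The 8 skeletal muscle genes summed to 3.71 and 8.42 CPM in WT PBS and to between 67.0 and 229 CPM in the other groups, and 7 of 8 were called higher in WT HDM than in WT PBS, led by Myh2 (0 and 2 counts against 137 and 185, adjusted p = 0.000134), Myh1 (6.58, adjusted p = 3.72e-06) and Mylpf (4.21, adjusted p = 0.00678). The 8 thymocyte genes summed to 151 and 158 CPM in WT PBS and to between 46.4 and 93.6 CPM elsewhere, and 4 of 8 were called lower in WT HDM, namely Rag1 (189 and 371 counts in WT PBS against 0 and 0, adjusted p = 9.96e-06), Dntt (30 and 23 against 0 and 0, adjusted p = 0.0230), Rag2 (62 and 57 against 1 and 0, adjusted p = 0.00569) and Arpp21 (-4.34, adjusted p = 0.00785). The 7 adipocyte genes summed to 48.6 and 52.1 CPM in WT HDM and to 106 and 119 CPM in TG HDM, and Fabp4 was the 1 called between these. Different genes carried the 2 sums of TG HDM. Fabp4 had 101 CPM in replicate 1 and 31.5 in replicate 2, while Plin1 had 2.83 and 41.9. Between the genotypes under HDM 0 of 8 skeletal muscle genes and 0 of 5 tested thymocyte genes were called by edgeR or DESeq2, with 2 and 0 at an unadjusted p under 0.05. Under PBS, where no member was called, 7 of 8 skeletal muscle genes were higher and 4 of 9 neutrophil and 4 of 8 thymocyte genes lower in TG. The part of these tissues in the levels of the members was not tested.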

How the data were processed

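Lung RNA of 4 mice was pooled in each group and sequenced as 2 libraries, whose titles give group and replicate. The authors' libraries of amplified RNA were read from one end over 50 bases. They aligned the reads to mm10 (GRCm38) with TopHat, and deposited raw read counts per Entrez gene, summed over coding regions with Bioconductor packages and custom R programs. The submitters' processing notes also name bcl2fastq, CASAVA 1.8 and DESeq. The versions of the aligner and annotation are not given in the sources used here. Symbols and positions came from RefSeq (GRCm38.p6) for 23372 of 23469 genes, another 7 symbols from identifier columns of the study's tables, and transcripts from GENCODE M21 for 21145.

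Each comparison was tested on its own 4 libraries with edgeR 4.0.16 (R 4.3.3; TMM, filterByExpr with a count minimum of 10, glmQLFit and glmQLFTest), and the interaction on all 8. The threshold was an adjusted p of 0.05. The SE is the size of the log2 fold change divided by the square root of F. The scripts were tested on simulated data. CPM, counts per effective library size, were computed on the TMM scale of all 8 libraries. Sequences were compared with Biopython 1.88, and intervals of shares with SciPy 1.17.1; they cover counting error only. Alternatives were DESeq2 1.42.0, RLE size factors, no filter, a minimum log2 fold change of 1, library sizes that leave out 13 genes (ribosomal RNA and haemoglobin), an offset for gene length, the replicate block, all 8 libraries in one fit, Chil3 and Chil4 summed, and each library left out.

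Named genes were all members, the other GH18 genes, the 3 genes nearest to each member in pattern (at least 50 counts), for each marker list the 3 called genes with the largest change in the genotype comparison under HDM and the HDM comparison of WT (all 4 where 4 were called, chosen after their values were seen), and Ddah1, Xist and Ddx3y. The members, lists and tests were chosen with earlier results of these data known. The study's own fold changes and p-values were not used. Chil5 and Ly6g, 2 genes of the lists, are not analysed here.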

Additional observations from a re-analysis of the deposited data

Results flagged for a closer look

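The response to HDM differed between DDAH1-transgenic and wild type lungs for 3 members, by the interaction term over all 8 libraries. The log2 response was lower in the transgenic lungs by -1.90 for Chil4 (SE 0.21, adjusted p = 3.40e-05), by -1.68 for Chil3 (SE 0.17, adjusted p = 1.03e-05) and by -2.28 for Chia1 (SE 0.31, adjusted p = 0.000362). All 3 stayed past the threshold when any 1 library was left out. The test knows only how far libraries of the same pool differ, and no variation between mice. Treatment and sex of the mice cannot be told apart in it.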

How the results depend on the processing

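The direction of the 4 tested members did not turn under any alternative. With DESeq2, 1 member was called between the genotypes under PBS, and likewise 1 without a low-count filter. The number of members called when 1 library was left out lay between 0 and 1 for genotype under PBS and between 0 and 4 for genotype under HDM, where the 0 came from leaving out either WT HDM library. It lay between 3 and 4 for the HDM response in TG and for the interaction, and was 4 for the HDM response in WT. Chil1 was also called with an offset for gene length together with the replicate block, for genotype under HDM (-0.66, adjusted p = 0.000907) and for the interaction (-0.76, adjusted p = 0.0388).

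Counts over all genes moved more than those of the members. For genotype under PBS they were 98 in the report, 217 with DESeq2, 306 without the filter and 45 with the replicate block. For genotype under HDM they were 370 (279 higher and 91 lower) in the report, 888 with DESeq2, 1055 without the filter, 625 with the replicate block, 771 with all 8 libraries in one fit, 203 (130 higher and 73 lower) with the length offset and 700 with that offset and the block. For HDM in WT they were 1020, against 666 at a minimum log2 fold change of 1 and 1588 without the filter, and for the interaction 279, against 688 with DESeq2 and 675 without the filter. Leaving out 1 library gave 75 to 432, 6 to 1595, 652 to 1661, 277 to 2676 (HDM in TG, 2079 in the report) and 138 to 721 (interaction). For genotype under HDM, 6 and 20 genes were called without WT HDM replicate 1 and 2, and 612 and 1595 without TG HDM replicate 1 and 2. For HDM in TG, 404 and 277 were called without TG PBS replicate 1 and 2. The cause of these moves was not tested, and a group left with 1 library was assumed to vary like the others.

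Same-numbered libraries share only a number: differences between replicates 1 and 2 correlated between groups at -0.02 to 0.05, and the block lost no member's call on its own. The median of all genes was 0.10 for HDM in TG with the length offset, and -0.11 for the interaction without replicate 2 of TG HDM. Of 146 alternatives for counts 114 stayed within 1.5 times. Allowing 2 mismatches and dividing by coding length moved the shared stretches and levels as given in the report. Chit1 and Il13 are limited by depth.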

Other observations

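In TG lungs, HDM raised 6 of 7 tested goblet cell genes, 6 of 11 tested genes of alternatively activated macrophages and 9 of 10 genes of lipid-laden macrophages. Clca1 rose by 5.07 and Muc5ac by 3.22 on the log2 scale (adjusted p = 1.03e-07 and 3.64e-05), Retnla by 6.26 (adjusted p = 3.32e-08), and Mmp12, macrophage elastase, by 5.96 (adjusted p = 1.62e-07). The response to HDM was smaller in TG than in WT lungs for Clca1 (-3.23, adjusted p = 1.32e-05), Muc5ac (-2.06, adjusted p = 0.00193), Ccl22 (-2.74, adjusted p = 0.0119), Il33 (-1.31, adjusted p = 0.00435) and Retnla (-1.38, adjusted p = 0.0278), by the interaction term. Ccl17, a chemokine, had -3.45 (adjusted p = 0.00345). In these lists the response was larger in TG for Clec7a, a receptor for fungal glucans (1.41, adjusted p = 0.00679), and for Gpnmb, a glycoprotein of lipid-laden macrophages (2.32, adjusted p = 4.01e-05). An interaction also takes in the PBS libraries, where the means of several of these genes lay apart. In WT PBS and TG PBS they were 9.70 and 18.2 CPM for Retnla, 5.68 and 19.7 for Clca1 and 3.02 and 11.9 for Ccl17. For Gpnmb they were 48.4 and 16.5, and for Clec7a 43.2 and 21.0. Il33 lay closer, with 130 and 148. Mmp12 had an interaction of 0.47 (SE 0.28, adjusted p = 0.473) and Spp1 of 0.26 (SE 0.25, adjusted p = 0.695), and neither passed the test. In all of these responses and interactions, treatment and sex cannot be told apart.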
